A study of Ovis aries and Bos taurus with 15 samples.

Results

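The genes described here act in the uptake, transport, storage or use of fatty acids, and are known targets of the PPAR receptors. The 9 genes, FABP3, FABP4, FABP5, CD36, PLIN2, ANGPTL4, PDK4, LPL and VLDLR, were chosen by name. They were read by 16 probe sets of a bovine Affymetrix array, each with 1 gene symbol in the platform annotation, out of 24016 probe sets and 9155 named genes. Bovine cells called BAEC in the labels and ovine cells called PAEC, the pulmonary endothelial cells of the series title, were profiled on 15 arrays in 3 groups of 5. The groups were bovine control and ovine PAEC kept for 24 h with either the DMSO vehicle or 5 µM GW9662. All cells were grown in DMEM with 10% serum. No label gives the bovine cells a vehicle, or says that replicates were separate cultures or animals. The p-values therefore measure the spread between these samples, which may be technical.

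PPARα, PPARδ and PPARγ are nuclear receptors that bind fatty acids and, paired with RXR, switch on genes of fat handling. GW9662 blocks PPARγ by binding covalently to its ligand pocket. In capillary endothelium, lipoprotein lipase frees fatty acids from circulating lipoproteins, CD36 helps them across the membrane, and small binding proteins carry them through the cytosol. Fat that is not passed on or burnt is kept in droplets coated by perilipins.

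Most endothelial markers were well above the floor. Of 16 endothelial marker genes 15 were measured. The group mean was 5 or more on the log2 scale for 12 in bovine control and for 11 in each ovine group, with VWF under 3 in every group. FLT1 and CLDN5 were under 3 in both ovine groups, and KDR was under 3 with vehicle. In bovine control CLDN5 read 5.03, FLT1 3.21 and KDR 3.08. Of 9 measured adipocyte markers 8 were under 3 in every group, the fat hormones ADIPOQ and LEP among them. The exception was LIPE, the hormone-sensitive lipase (4.53 in bovine control and 3.58 with vehicle). Of 7 measured microvascular endothelial markers CA4, AQP7, MEOX2 and BTNL9 were under 3 in every group, and only FABP4 was at 5 or more. Of 8 measured leukocyte and macrophage markers PTPRC, CD68, AIF1, CSF1R, ITGAM and TYROBP were likewise under 3 in every group. MSR1 was at 3.26 in bovine control, 3.38 with vehicle and 3.24 with GW9662. CD14 was at 2.27 in bovine control and 6.69 with vehicle. Of the measured markers of other cells, those under 3 in both bovine control and vehicle were 5 of 9 for fibroblasts, 5 of 7 for smooth muscle, 6 of 8 for muscle and 6 of 7 for epithelium. Array medians ran from 3.18 to 3.27, and 45.9% of probe sets had a mean under 3, the level treated here as the floor of the arrays. A value at the floor cannot be told from no expression. The 3′ minus 5′ difference of 6 control transcripts, a measure of RNA quality, was 1.18 ± 0.085 (SD, n = 5) with vehicle, 0.956 ± 0.074 with GW9662 and 0.881 ± 0.043 in bovine control. The vehicle arrays overlapped neither other group (two-sided exact permutation p = 0.00794, adjusted p = 0.00794 over both comparisons, the smallest that 5 against 5 arrays can give). A fit with this measure as a covariate can therefore hardly tell it apart from group. A call lost in such a fit does not show that RNA quality made the difference.

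**Figure D1:**
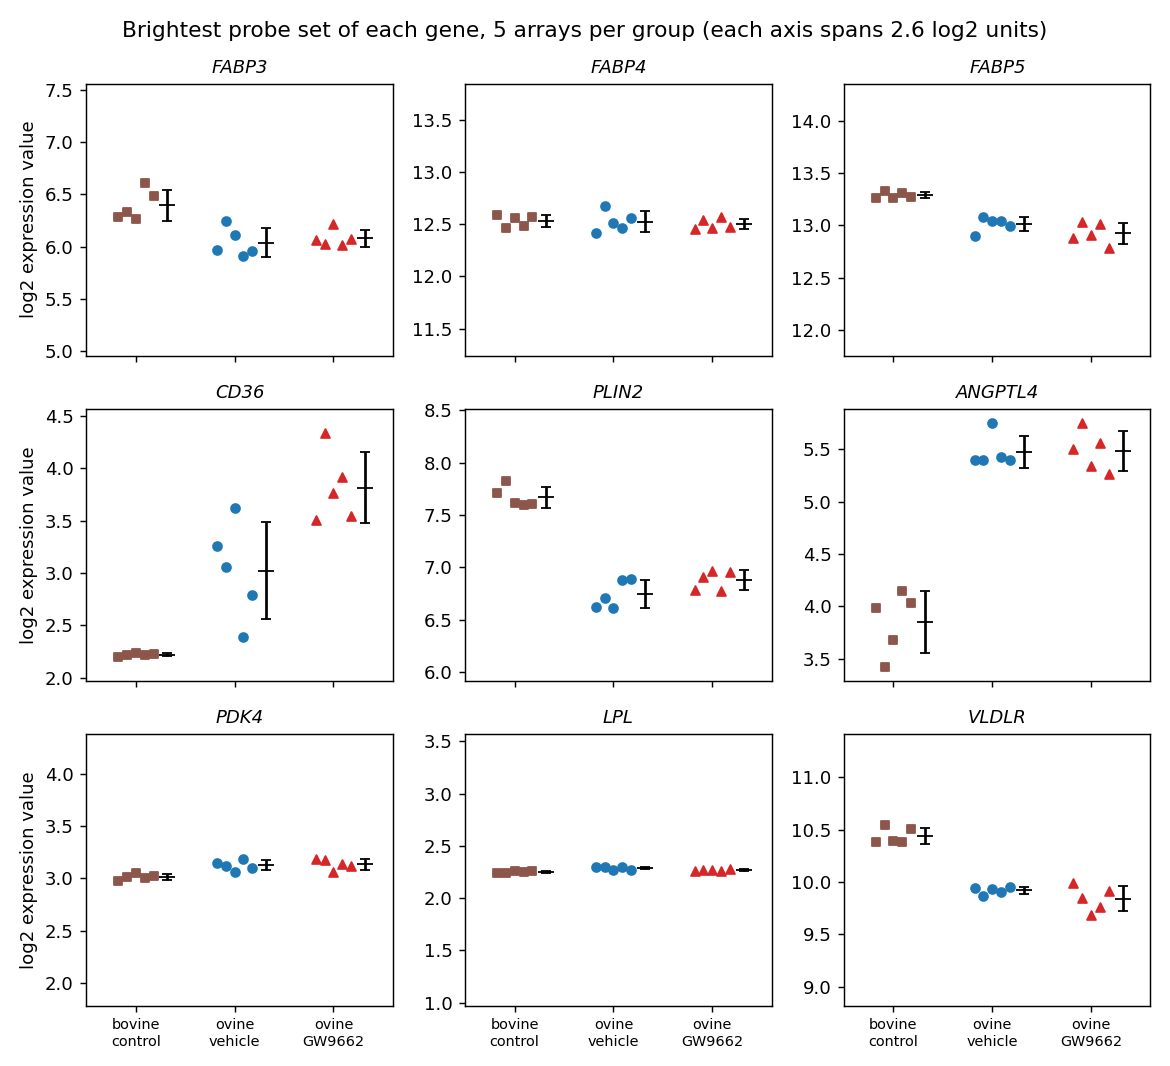
Log2 expression value (vertical axis, 2.6 log2 units in every panel, placed at each gene's own level) of the brightest probe set of each of the 9 genes in bovine control (squares), ovine vehicle (circles) and ovine GW9662 (triangles); points are arrays and bars are the mean and SD of 5. ANGPTL4 and CD36 lie lower in bovine arrays and PLIN2 and VLDLR lie higher, while the GW9662 and vehicle arrays overlap in each of the 9 panels.

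The first question of the study was what an antagonist of PPARγ does to gene expression in ovine PAEC. None of the 16 probe sets passed at an adjusted p of 0.05 with GW9662 (limma, Benjamini-Hochberg over 24016 probe sets), where 0.183% of all probe sets did. At an unadjusted p under 0.05 the count was 4 of 16, 1 higher and 3 lower, against 21.4% of all probe sets. The median difference of the 16 was -0.0027, against -0.016 over all probe sets, and 15 of the 16 differences were under 0.15 in size. CD36 was the exception, at 0.79 on the log2 scale with a wide error. No member was called in any of the 10 fits that left out 1 array. PPARG, which encodes the receptor that GW9662 blocks, had a mean under 3 in every group on its brightest probe set. It read 2.82 with vehicle, 2.79 with GW9662 and 2.79 in bovine control, so its expression could not be told from none.

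None of the 5 probe sets of the binding proteins passed between vehicle and GW9662. FABP4, the adipocyte and endothelial fatty acid binding protein and a textbook PPARγ target, read 12.4, 12.7, 12.5, 12.5 and 12.6 on its brightest probe set in vehicle arrays and 12.5, 12.5, 12.5, 12.6 and 12.5 in GW9662 arrays. The arrays interleaved, and the log2 difference was -0.022 (95% interval -0.13 to 0.089, adjusted p = 0.769). The dimmer FABP4 probe set gave 0.039 (interval -0.14 to 0.22). FABP5, the epidermal form, gave -0.088 (-0.21 to 0.030, adjusted p = 0.297) on its brightest probe set and 0.018 (-0.083 to 0.12) on the other. FABP3, the heart form, gave 0.042 (-0.11 to 0.20, adjusted p = 0.685). The 3′ minus 5′ difference moved between the same arrays. With it as a covariate the dimmer FABP4 probe set was at -0.23 (adjusted p = 0.929) and the FABP5 probe sets at -0.21 (0.888) and -0.12 (0.993), and no member passed in that fit either.

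CD36, the membrane receptor and transporter for long-chain fatty acids, read 3.26, 3.06, 3.62, 2.39 and 2.79 in vehicle arrays. With GW9662 it read 3.51, 4.34, 3.77, 3.92 and 3.54. The GW9662 arrays were higher but for vehicle replicate 3, which lay above GW9662 replicates 1 and 5. The log2 difference was 0.79 (SE 0.24, interval 0.24 to 1.34, adjusted p = 0.217), and 99.8% of all probe sets had a smaller difference in size. The spread was large too: the SD was 0.466 with vehicle and 0.338 with GW9662, where the median SD of all probe sets was 0.0879 and 0.0614. Without vehicle replicate 3 the adjusted p was 0.0970, and over the 10 fits without 1 array the difference ran from 0.63 to 0.94. Vehicle values near 3 stand at the floor, so the size of the difference is uncertain on that side. With the 3′ minus 5′ covariate it was 0.52 (adjusted p = 1.00).

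PLIN2, a perilipin that coats lipid droplets and rises with their fat content, read 6.62, 6.71, 6.61, 6.88 and 6.89 with vehicle. It read 6.78, 6.91, 6.97, 6.78 and 6.96 with GW9662. The groups overlapped, at a log2 difference of 0.14 (interval -0.023 to 0.29, adjusted p = 0.261), which was 0.050 after a second quantile normalisation. ANGPTL4, a secreted inhibitor of lipoprotein lipase that PPARs induce, read 5.40, 5.40, 5.75, 5.43 and 5.40 with vehicle and 5.51, 5.75, 5.35, 5.56 and 5.26 with GW9662. These arrays interleaved, with a difference of 0.0097 (interval -0.23 to 0.25, adjusted p = 0.953). VLDLR, the very low density lipoprotein receptor, was at -0.078 (-0.20 to 0.044, adjusted p = 0.351) on its brightest probe set.

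PDK4 and LPL read at or near the floor. PDK4, the kinase that shuts off pyruvate dehydrogenase when fat is burnt, lay between 2.30 and 3.44 on its 3 probe sets over all 15 arrays. LPL, lipoprotein lipase, lay between 2.24 and 2.30. Its GW9662 minus vehicle difference of -0.021 turned to 0.021 when each array was centred on its median, and that of the dimmest PDK4 probe set turned from -0.034 to 0.0086. A fall of these genes with GW9662 could not have been seen at such levels, and no rise was called. VLDLR probe sets 3 and 4 were at the floor as well (2.22 to 3.29). Probe set 4 was the 1 member whose vehicle and GW9662 arrays did not overlap, which held for 14.6% of all probe sets, at a difference of -0.015 that turned to 0.027 with centring.

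**Figure D2:**
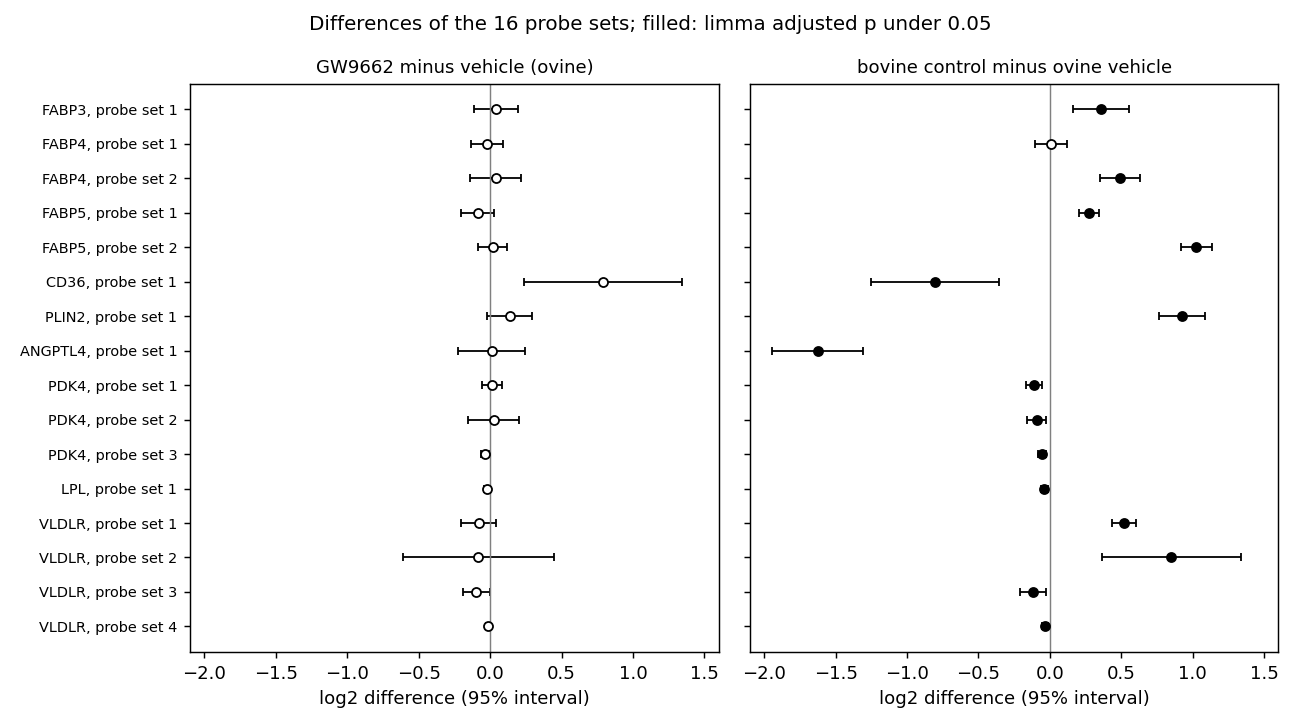
Log2 difference (horizontal axis) with its 95% interval from limma for the 16 probe sets, GW9662 minus vehicle on the left and bovine control minus ovine vehicle on the right, numbered from the brightest probe set of a gene; filled circles passed at an adjusted p of 0.05. On the left 0 of 16 passed and CD36 stands at 0.79; on the right 15 passed, from ANGPTL4 at -1.62 to FABP5 probe set 2 at 1.02.

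Bovine control and ovine vehicle differed much more. ANGPTL4 and CD36 read lower in bovine cells, by log2 differences of -1.62 and -0.80, and PLIN2, FABP5, VLDLR and FABP3 read higher, by 0.93, 0.27, 0.52 and 0.36 on their brightest probe sets. FABP4 did not pass on its brightest probe set. In all, 15 of 16 probe sets passed, 7 higher and 8 lower, and 13 had groups that did not overlap. Over all probe sets 45.2% passed, 15.6% higher and 29.6% lower, and groups did not overlap in 53%. Markers of other cell types also differed between these arrays. The mean level of the fibroblast list was 5.16 to 5.26 in bovine arrays and 4.46 to 4.70 with vehicle, that of the smooth muscle list 3.66 to 3.80 against 3.12 to 3.31, and that of the muscle list 3.1 to 3.2 against 3.7 to 3.8. These means rest on few genes. FBLN1 read 8.61 against 3.74, COL1A2 11.2 against 10.3 and SMTN 5.19 against 3.91, while COL3A1 read 10.4 in both. Of 9 measured fibroblast markers 2 were called higher and 4 lower, where 21.9% and 27.4% of all named genes were. The 4 lower were COL1A1, PDGFRA, LUM and DPT, all under 3 in both groups. With each array centred or after a second quantile normalisation, 2 fibroblast markers were called higher and 1 lower. In the muscle list CKM read 2.57 against 7.79, but MYH7 went the other way, at 7.01 against 5.79. TAGLN was higher in bovine arrays by 1.83 on the log2 scale. Their part in the members' differences was not tested. Species, cell source and vehicle differ together between these groups and cannot be told apart, nor can the fit of sheep RNA to bovine probes. The comparison shares its vehicle arrays with that of GW9662. The count of member probe sets was 10 with each array centred, 7 higher and 3 lower, and 10 after a second quantile normalisation, 6 higher and 4 lower. In the fit with that RNA quality measure (3′ minus 5′) as a covariate it was 4: PLIN2, VLDLR probe set 1 and FABP5 probe set 2 higher and ANGPTL4 lower. Over all probe sets the count fell too in each of these fits, to the totals given in the last section.

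The part of that count at the floor was large. In 6 probe sets every group mean was under 3.5: the 3 of PDK4, the 1 of LPL and VLDLR probe sets 3 and 4. All 6 were called lower in bovine arrays, with differences of -0.12 to -0.032, where 36.5% of all probe sets with such low means were called, 35.3% lower and 1.22% higher. Of the 10 brighter member probe sets 7 were called higher and 2 lower, where 54.2% of such probe sets were called, 30.5% higher and 23.8% lower. LPL read 2.24 to 2.26 in bovine arrays and 2.27 to 2.30 with vehicle, a difference of -0.038 (adjusted p = 0.0172) that was -0.0033 with centring (adjusted p = 0.870). The brightest PDK4 probe set was at -0.11 (adjusted p = 0.00776).

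ANGPTL4 showed the largest difference of the 16 probe sets. It read 3.98, 3.42, 3.67, 4.14 and 4.03 in bovine arrays, against 5.40 to 5.75 with vehicle and 5.26 to 5.75 with GW9662. All bovine arrays lay below all ovine ones. The log2 difference from vehicle was -1.62 (SE 0.14, interval -1.94 to -1.31, adjusted p = 2.4e-05), a 3.08-fold lower signal, and 97.9% of all probe sets had a smaller difference in size. It ran from -1.52 to -1.70 over the 10 fits without 1 array and was -2.04 with the 3′ minus 5′ covariate. By root mean square difference of centred values over the 15 arrays, the named genes nearest to ANGPTL4 were GRAMD4 (0.146 log2 units; group means 7.57, 9.12 and 9.26 in bovine, vehicle and GW9662 arrays) and RNF19B (0.188; 8.29, 9.94 and 9.89).

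CD36 was at the floor in bovine arrays, with 2.20, 2.22, 2.24, 2.21 and 2.23. The 5 values lay below every ovine array and spread far less (SD 0.0136). The fitted difference from vehicle was -0.80 (SE 0.20, adjusted p = 0.0129). The vehicle mean of 3.02 is near the floor too, so its size is uncertain, and with the 3′ minus 5′ covariate it was -0.91 and no longer passed (adjusted p = 0.490). The order of CD36 levels was bovine control, vehicle and GW9662, with the last neighbours overlapping. The genes nearest to its pattern were MIC1 (root mean square difference 0.297; group means 2.31, 2.93 and 3.51) and AMIGO2 (0.326; 6.95, 8.16 and 8.58). Among the members, ANGPTL4 was the nearest to CD36, at 0.467. PLIN2 lay nearest to VLDLR, at 0.206, and FABP3 to FABP5, at 0.134, but VLDLR itself was nearer to FABP5, at 0.162. The smallest values were between PDK4 and LPL (0.058), FABP4 and LPL (0.070) and FABP4 and PDK4 (0.104). The brightest probe sets of these genes differed little between groups, and a small value can reflect that alone.

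PLIN2 read 7.71, 7.82, 7.61, 7.59 and 7.60 in bovine arrays. Every one of these lay above the highest vehicle array (6.89) and the highest GW9662 array (6.97). The log2 difference from vehicle was 0.93 (SE 0.071, interval 0.76 to 1.09, adjusted p = 1.1e-05), a 1.90-fold higher signal, and it was 0.88 with the 3′ minus 5′ covariate (adjusted p = 0.0394). The order of levels was vehicle, GW9662 and bovine control, with the ovine neighbours overlapping.

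The 3 binding proteins differed among themselves, and probe sets of the same gene differed too. FABP5 read 12.8, 12.6, 12.7, 12.6 and 12.7 on probe set 2 in bovine arrays, against 11.5, 11.7, 11.7, 11.6 and 11.7 with vehicle. No arrays overlapped, and the log2 difference was 1.02 (SE 0.048, interval 0.92 to 1.13, adjusted p = 3.7e-07). On the brightest FABP5 probe set, at 13.3 in bovine control and 13.0 with vehicle, the difference was 0.27 (interval 0.20 to 0.35, adjusted p = 0.000177), which no longer passed with the 3′ minus 5′ covariate (0.11, adjusted p = 0.472). The interval of each FABP5 probe set lies apart from that of the other, so the size of the difference depends on the probe set.

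FABP4 gave the same kind of split. Its brightest probe set read 12.6, 12.5, 12.6, 12.5 and 12.6 in bovine arrays and overlapped both ovine groups, with a difference of 0.0085 from vehicle (interval -0.10 to 0.12, adjusted p = 0.892). The dimmer probe set read 10.2 to 10.4 in bovine arrays, 9.67 to 9.94 with vehicle and 9.72 to 10.1 with GW9662. There the bovine arrays lay above all ovine ones, and the difference was 0.49 (SE 0.062, adjusted p = 0.000285; 0.29 with the 3′ minus 5′ covariate, adjusted p = 0.421). The mean of both probe sets gave 0.25 (adjusted p = 0.00308). FABP3 read 6.27 to 6.61 in bovine arrays and 5.91 to 6.24 with vehicle, without overlap. Its difference was 0.36 (SE 0.086, adjusted p = 0.0123), which no longer passed after a second quantile normalisation (0.26, adjusted p = 0.0746) or with the covariate (0.13, adjusted p = 0.962).

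VLDLR had 4 probe sets, of which the brightest was far above the others. It read 10.4, 10.5, 10.4, 10.4 and 10.5 in bovine arrays, 9.94, 9.86, 9.94, 9.90 and 9.96 with vehicle and 10.0, 9.85, 9.69, 9.76 and 9.91 with GW9662. All bovine arrays were above all ovine ones, by a log2 difference of 0.52 from vehicle (SE 0.038, interval 0.44 to 0.61, adjusted p = 7.3e-06). Probe set 2 was dim, at 3.91 ± 0.20 (SD, n = 5) in bovine control, 3.06 ± 0.46 with vehicle and 2.98 ± 0.30 with GW9662. Its difference of 0.85 from vehicle passed (SE 0.21, adjusted p = 0.0146) but not with the 3′ minus 5′ covariate (1.41, adjusted p = 0.244). Probe sets 3 and 4, at the floor, differed by -0.12 and -0.032 (adjusted p = 0.0439 and 0.0202), and neither passed with centring (-0.082 and 0.0021).

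Around these genes, 6 lists of the same pathway held 153 other genes, of which 104 were measured, each by its brightest probe set. With GW9662 none of them passed in limma, in any list, where 0.218% of 9155 genes did. At an unadjusted p under 0.05, where 20.1% of all named genes passed, the counts were 7 of 15 genes of fatty acid binding and transport, 4 of 26 of lipid droplets, 4 of 15 of lipases and lipoprotein receptors, 4 of 11 of the pyruvate dehydrogenase complex, 4 of 27 other PPAR targets and 1 of 10 receptors and cofactors. Of the 7, FABP1, FABP2, FABP6 and FABP7 were under 3 in both ovine groups, and SLC27A6 was at 3.24 with GW9662 and 3.37 with vehicle. The others were brighter: ACBD3 at 9.16 with GW9662 and 8.98 with vehicle, and GOT2 at 10.2 and 10.4. With each array centred, the negative differences of FABP1, FABP2 and FABP6 turned to 0.0068, 0.014 and 0.025. The signs of the others held, with FABP7 at -0.012, SLC27A6 at -0.094, ACBD3 at 0.22 and GOT2 at -0.092. The medians lay between -0.044 (receptors) and 0.074 (pyruvate dehydrogenase; -0.046 with the 3′ minus 5′ covariate), against -0.015 over all named genes. The gene of smallest p in each list was SLC27A6, a fatty acid transporter (-0.14, adjusted p = 0.217), SOAT1, which esterifies cholesterol (0.14, 0.217), SCARB1, the HDL receptor (-0.28, 0.166), PDP1, the phosphatase that turns pyruvate dehydrogenase on (0.33, 0.137), ACSL1, a fatty acyl-CoA synthetase (0.13, 0.123), and PPARGC1A, a PPAR coactivator (-0.092, 0.217). PPARGC1A was under 3 in both groups (2.77 with GW9662 and 2.86 with vehicle), and its difference was -0.050 with each array centred.

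**Figure D3:**
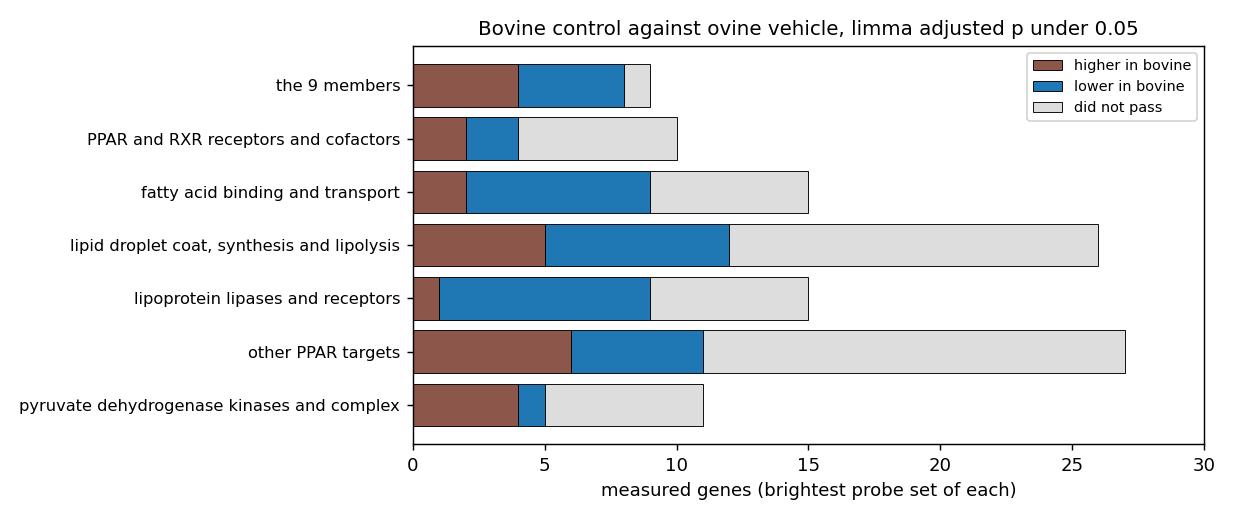
Number of measured genes (horizontal axis) in the 9 members and in each of 6 lists of the same pathway that were higher, lower or did not pass in bovine control against ovine vehicle, at a limma adjusted p of 0.05 on the brightest probe set of each gene. Of the 9 members 4 were higher and 4 lower; among lipases and lipoprotein receptors 1 was higher and 8 lower.

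Between bovine control and ovine vehicle, 49.2% of all named genes passed, 21.9% higher and 27.4% lower, and 8 of the 9 members did on their brightest probe set, 4 each way. Among lipid droplet genes 5 were higher and 7 lower of 26 (median -0.0058, against -0.022 over all named genes), but 5 higher and 3 lower with each array centred or after a second quantile normalisation. HSD17B11, a droplet-bound dehydrogenase, was higher by 0.72 (adjusted p = 6.0e-07), as was RAB18, a droplet GTPase, by 0.25 (0.00084), while SOAT1 was lower at -0.70 (9.3e-07). Among lipases and lipoprotein receptors 1 was higher and 8 lower of 15 (median -0.066). LIPA, the lysosomal acid lipase, was at -1.44 (4.5e-09), LRPAP1, a chaperone of the LDL receptor family, at -0.85 (4.7e-06), and DAB2, an adaptor for receptor uptake, at 1.34 (3.3e-07). With each array centred, 1 was higher and 5 lower. Centring also lowered the count over all probe sets, as given in the last section.

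Other PPAR targets were 6 higher and 5 lower of 27 (median 0.035), and 6 higher and 2 lower with centring. SCD, the desaturase that makes oleate, was higher by 2.89 (adjusted p = 5.5e-09) and ACSL3, an acyl-CoA synthetase of growing droplets, by 1.89 (5.7e-07), while ACSL5 was lower at -0.70 (5.5e-08). Of the pyruvate dehydrogenase genes 4 were higher and 1 lower of 11 (median 0.10), among them PDHB, a subunit of the complex, at 0.52 (5.4e-05), MPC2, of the mitochondrial pyruvate carrier, at 0.24 (0.0040), and PDP1 at -0.68 (0.0018). Receptors and cofactors were 2 higher and 2 lower of 10 (median -0.014), with PPARD at 0.41 (0.0025), the corepressor NCOR1 at 0.51 (0.010) and the coactivator NCOA1 at -0.79 (0.0068). Genes of fatty acid binding and transport were 2 higher and 7 lower of 15 (median -0.028), but 2 higher and 1 lower with each array centred. CAVIN1, a caveolar coat protein, was higher by 0.74 (0.00019). The lower genes included FABP2 at -0.052 and FABP7 at -0.080, both at the floor and neither called with centring. The 3′ minus 5′ difference separated the same arrays, so a fit with it as a covariate can hardly tell it from group. With it as a covariate most of these calls were lost, as were most over all probe sets, and the part of RNA quality was not tested. There lipid droplet genes had 1 higher (HSD17B11) and 1 lower (SOAT1), lipases and lipoprotein receptors 1 higher (DAB2) and 3 lower (LIPA, LRPAP1 and MYLIP), and other PPAR targets 2 higher (SCD and ACSL3) and 1 lower (ACSL5). Binding and transport, receptors and cofactors, and pyruvate dehydrogenase had 0 higher and 0 lower, and the median of the last was -0.025.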

How the data were processed

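Per the submitters' processing notes, the authors summarised the 15 bovine Affymetrix arrays by RMA, in a version not given in the sources used here. The deposited values are log2 expression values per probe set, already background-corrected and quantile-normalised as RMA does. Here 112 control probe sets were left out and each comparison was fitted on its own 10 arrays with limma 3.58.1 in R 4.3.3 (lmFit and eBayes), with Benjamini-Hochberg adjustment over 24016 probe sets and a threshold of 0.05. Genes were named from the platform annotation where it gives 1 symbol (13292 probe sets; 86 have several and 10638 none). Probe sets of a gene were numbered by mean level, and lists used the brightest. Genes named with values are the members, the genes nearest to a member's pattern and the genes of smallest p in each list. Others, namely LIPE, CD14, MSR1, MYLIP, FABP1, FABP6, PPARG, ACBD3, GOT2 and the single endothelial, fibroblast and muscle markers, were named after their values were seen. Exact permutation tests used scipy 1.17.1. The scripts were tested on simulated data. The members and lists were chosen with earlier results of these data known. Alternatives were another threshold, scaling, variance model, block, covariate or array set. The number of arrays limits the precision.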

Additional observations from a re-analysis of the deposited data

Results flagged for a closer look

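In 3 of 51 groups of 5 arrays, 1 array stood apart from the rest of its group by Dixon's test, where chance alone marks about 1 group in 20. ANGPTL4 read 5.75 in ovine vehicle replicate 3, where the other vehicle arrays began at 5.40. PDK4 probe set 2 read 3.44 in ovine GW9662 replicate 4, in a group that began at 3.01. VLDLR probe set 4 read 2.23 in the same array, in a group that reached 2.25, all of it at the floor.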

How the results depend on the processing

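With GW9662, 0 member probe sets were called in every alternative run, and 44 probe sets of the array were called. That total was 6 and 109 at adjusted p limits of 0.01 and 0.10, 237 with all 15 arrays in the fit, 67 with centring, 76 without dim probe sets, 26 with trended and robust variance, 0 with the 3′ minus 5′ covariate (limma; 1312 at an unadjusted p under 0.05) and 9 to 62 without 1 array, the fewest without vehicle replicate 5. Against bovine control 10860 probe sets were called, 4607 at 0.01, 1601 with the covariate, 6455 with centring, 6575 without dim probe sets, 6802 after a second quantile normalisation and 7335 to 10858 without 1 array. The member count of 15 was 8 at 0.01, 4 with the covariate, 9 without dim probe sets and 12 to 15 without 1 array. After each probe set's group mean was subtracted, same-numbered arrays correlated between -0.19 and 0.17, and none best with its own number. These values gave no sign of pairing, but they cannot exclude it, and the labels do not say what a replicate is. With the replicate block 0 probe sets were called with GW9662 (3205 at an unadjusted p under 0.05) and 5396 against bovine control, 8 of them members.

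Signs turned for small GW9662 differences. The covariate gave FABP4 probe set 2 -0.23, FABP5 probe set 2 -0.12, ANGPTL4 -0.36, PDK4 probe set 1 -0.020, VLDLR probe set 2 0.15 and probe set 3 0.043. Centring gave FABP4 probe set 1 0.021, PDK4 probe set 3 0.0086, LPL 0.021 and VLDLR probe set 4 0.027. Quantile normalisation gave FABP3 -0.052, FABP4 0.018 and -0.0048, ANGPTL4 -0.083 and VLDLR probe set 4 0.0036. Array weights gave FABP5 probe set 2 -0.00032, PDK4 probe set 2 -0.00091 and VLDLR probe set 2 0.069, and the mean of the FABP4 probe sets was 0.0084. Without 1 array the ranges that crossed 0 were -0.050 to 0.016 and -0.029 to 0.072 for FABP4, -0.013 to 0.037 for FABP5 probe set 2, -0.058 to 0.078 for ANGPTL4, -0.0047 to 0.030 and -0.053 to 0.053 for PDK4 and -0.25 to 0.036 for VLDLR probe set 2. Against bovine control, FABP4 probe set 1 was -0.0067 with the covariate, -0.0045 with array weights and -0.019 to 0.047 without 1 array, PDK4 probe set 2 was 0.048 and VLDLR probe set 3 0.11 with the covariate, and VLDLR probe set 4 was 0.0021 with centring. The cause was not tested.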
